A study of Drosophila melanogaster with 2 samples.

Results

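Small nucleolar RNAs (snoRNAs) and the genes that carry them were examined in a map of Spalt major (Salm), a zinc-finger transcription factor of Drosophila melanogaster. The members were all genes that Ensembl release 115 (FlyBase 6.54) gives the biotype snoRNA on the arms 2L, 2R, 3L, 3R, 4 and X, which came to 269 of 18164 annotated genes without transposable elements. A host was a gene of another kind with a transcript on the same strand whose span held the whole snoRNA. By this rule 247 snoRNAs had a host, 22 had none, and there were 95 host genes.

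Chromatin immunoprecipitation followed by sequencing (ChIP-seq) had been done on whole embryos aged 0 to 16 h from 1 transgenic line that made Salm with GFP at its C-terminus, and the submitters' description says that the pull-down used an antibody against GFP. The antibody field of the labels names salm instead, so whether untagged Salm could be pulled down is not settled by them. There were 2 biological replicates of this 1 group and no second condition, so the question answered here is where summits, the highest points of the peaks, lay. The labels do not say which promoter drove the fusion or whether untagged Salm was still made, and whole embryos average over many tissues and stages. The list that the authors thresholded by consistency between replicates (the thresholded list) held 3421 peaks with a signal from 141 to 2154 and a median of 206. The pooled list held 30000 peaks, many of them weak, with a median signal of 55.5. Every host summit of the thresholded list had the same signal and rank in the pooled list. A place in the thresholded list therefore does not by itself show that a peak was strong in each replicate, and replicate ranks are given beside it. Read totals were not given, so the depth is unknown.

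SnoRNAs guide the chemical modification of other RNAs in the nucleolus, where ribosomes are made. Box C/D snoRNAs direct 2'-O-methylation through the methyltransferase fibrillarin, and box H/ACA snoRNAs direct pseudouridylation through a dyskerin-type enzyme. Most animal snoRNAs have no promoter of their own: they are cut from the introns of a longer transcript, often the pre-mRNA of a ribosomal protein or another protein of translation. In flies some come from U snoRNA host genes (Uhg), whose spliced transcripts are not known to code for a protein.

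Among the members, 106 were named for a pseudouridylation (Psi), 77 for a methylation (Me), 21 were orphans without a known target (Or), 16 were small Cajal-body RNAs (scaRNA), 16 had U names and 33 other names. They were 46 to 316 bp long, with a median of 134 bp. The 95 hosts were 29 cytosolic ribosomal protein genes, 55 other protein-coding genes and 11 genes not annotated as coding, of which 7 were Uhg genes. Ribosomal protein genes held 76 of the snoRNAs, other coding hosts 126 and Uhg genes 48, and 12 snoRNAs lay in more than 1 host. Of the 247 hosted snoRNAs, 227 overlapped no exon on their strand, so they were intronic.

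3 snoRNAs that differ in host and class show what these genes look like. Psi28S-3342 (chrX:5524302-5524465, minus strand) had no host and contained a thresholded summit. Psi18S-920 (chr3L:11822984-11823124, plus strand) lay in the ribosomal protein gene RpL10Ab, and Me28S-A774b (chr3L:13023580-13023652, plus strand) in RpS12. Sequences here and in the following are from Release 6 of the genome (dm6), 5′ to 3′ on the strand of the gene. Capitals mark the ACA box that ends a box H/ACA snoRNA, or box C (TGATGA) and box D (CTGA) of a box C/D snoRNA.
snoRNA:Psi28S-3342: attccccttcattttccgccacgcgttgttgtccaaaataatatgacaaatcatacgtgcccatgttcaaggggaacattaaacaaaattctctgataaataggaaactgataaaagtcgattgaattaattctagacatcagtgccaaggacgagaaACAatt
snoRNA:Psi18S-920: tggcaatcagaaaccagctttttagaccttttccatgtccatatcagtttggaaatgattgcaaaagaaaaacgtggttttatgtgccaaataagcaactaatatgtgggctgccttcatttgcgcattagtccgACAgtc
snoRNA:Me28S-A774b: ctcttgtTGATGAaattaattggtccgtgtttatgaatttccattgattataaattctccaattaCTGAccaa
An ACA lay in the last 8 bases of 108 of 114 Psi and orphan ACA snoRNAs. Both boxes, box C in the first 20 and box D in the last 16 bases, were found in 62 of 90 Me and orphan CD snoRNAs.

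Ribosomal protein hosts carried their summits at the transcription start site (TSS), and many of their start sites have a run of pyrimidines. To show the start sites that these summits lie at or near, they are given for 8 of the ribosomal protein hosts with strong summits, each 25 bases long from 12 bases before the canonical TSS, with CTTT in capitals. The summit itself lies inside the window for RpL30 and outside it for the other 7. In Drosophila such a run at the TSS is known as the polypyrimidine initiator of genes of the translation machinery.
RpL30: tccgcctgttcttcctCTTTCTTTt
RpL14: tcaaaaaagttCTTTccttctCTTT
RpS4: aatccagtatttagttattcgacgc
RpL23A: tgcccctcagttttcCTTTtcattt
RpL13A: aacgcaacttccgccttCTTTccgt
RpS7: tggctcgacttcCTTTcctgtcaaa
RpL4: catttccggcagctctCTTTCTTTc
RpL17: cttgatttccagcactagaactgcc
The windows of RpS4 and RpL17 held no CTTT. For RpS4 the printed window is not at the TSS nearest to its summit, which is another TSS downstream. The 8 windows lie at chr2L:19009225-19009249 (RpL30, minus strand), chr3L:8600994-8601018 (RpL14, plus), chr3L:13041744-13041768 (RpS4, plus), chr3L:1668642-1668666 (RpL23A, minus), chr3R:5624462-5624486 (RpL13A, plus), chr3R:30208930-30208954 (RpS7, minus), chr3R:27922809-27922833 (RpL4, plus) and chrX:6744226-6744250 (RpL17, minus).

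Salm-GFP summits lay at the starts of many host genes and at the starts of few snoRNAs. Of the 95 hosts, 43 (45.3%, exact 95% binomial interval 35 to 55.8%) had a thresholded summit within 500 bp of the TSS of a transcript that contained the snoRNA. The share over all 13945 protein-coding genes, counted at any TSS, was 13.5%. Of the 269 snoRNA starts, 18 (6.69%, 4.01 to 10.4%) had a thresholded summit within 500 bp, beside 10.1% of the starts of 17895 other annotated genes. In the pooled list, 77 hosts (81.1%, 71.7 to 88.4%) and 57 snoRNA starts (21.2%, 16.5 to 26.6%) had a summit, where the shares over all genes were 49.9% and 43.7%. These are counts of genes, their intervals cover counting error only, and with 1 group no test between samples was possible.

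**Figure D1:**
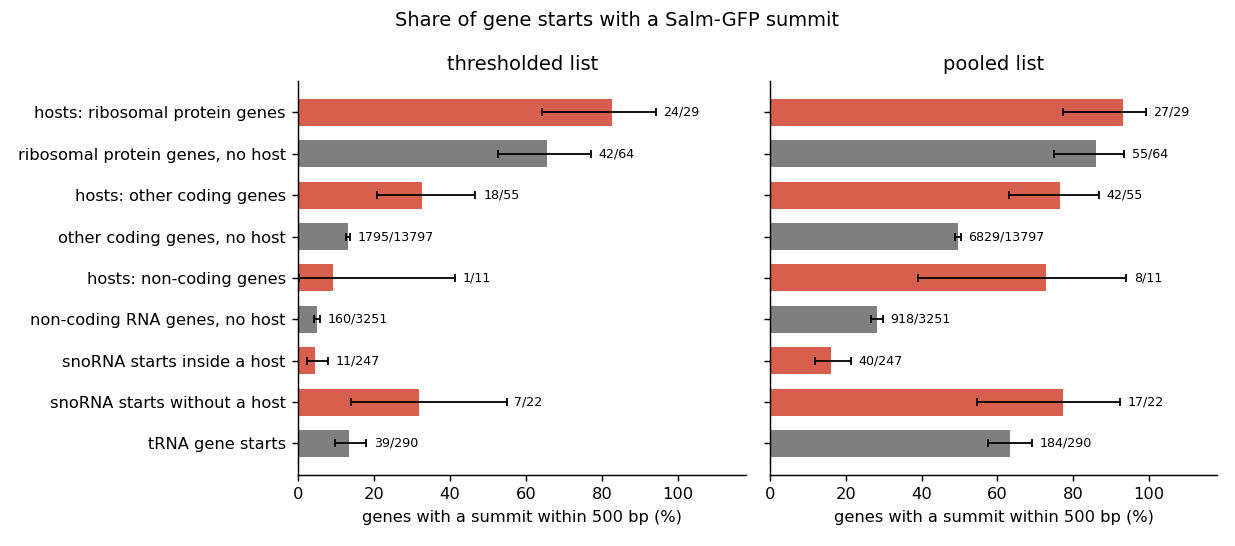
Percent of snoRNA starts and host genes with a summit within 500 bp, for the thresholded and the pooled list; red bars are snoRNAs and hosts, grey bars other genes, and lines exact 95% binomial intervals. Ribosomal protein hosts stand highest with 24 of 29 genes, and snoRNAs with a host lowest with 11 of 247 starts.

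Ribosomal protein genes made up 24 of the 43 bound hosts. A thresholded summit lay at 24 of the 29 ribosomal protein hosts (82.8%, 64.2 to 94.2%), at 18 of the 55 other coding hosts (32.7%, 20.7 to 46.7%) and at 1 of the 11 non-coding hosts (9.09%, 0.23 to 41.3%). Ribosomal protein genes that hold no snoRNA were also often bound, at 42 of 64 (65.6%, 52.7 to 77.1%), an interval that overlaps that of the ribosomal protein hosts. Coding genes that were neither hosts nor ribosomal protein genes had a summit in 13% of 13797 cases. With ribosomal protein hosts left out, 19 of 66 hosts (28.8%) had a summit.

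By their medians the other coding hosts that were bound were longer and had more TSSs than those that were not, and a gene with more TSSs is counted over more windows. Their median length was 14946 bp with a median of 2.5 TSSs, against 5502 bp and 1 TSS for the 37 that were not bound and a median of 1 TSS for all coding genes. Short genes with 1 TSS, such as CG1142, Irbp, Fib and nop5, were among the bound hosts too. The part of this in the share was not tested apart from the following count. When only the TSS of the canonical transcript was counted, a setting chosen after the data were seen, 11 of the 55 other coding hosts (20%) remained, beside 11.4% of all coding genes, while the ribosomal protein hosts stayed at 24 of 29.

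The strongest summit at a host was that of CG1142, a coding gene for which no role is given here, which holds 1 snoRNA (chr3R:7472458-7473781, minus strand). The peak (chr3R:7473801-7474106) had a signal of 1151, the rank 45 of the thresholded list, at 162 bp upstream of the TSS. It stood at rank 51 in replicate 1 with a signal of 681 and at rank 34 in replicate 2 with 477, so both replicates placed it near the top. The replicate lists give other signals than the thresholded list, so ranks rather than signals are compared across these lists. The sequence before its TSS (chr3R:7473782-7473981) is shown because it spans this summit, and is A and T rich, with 30.5% G and C.
CG1142 promoter: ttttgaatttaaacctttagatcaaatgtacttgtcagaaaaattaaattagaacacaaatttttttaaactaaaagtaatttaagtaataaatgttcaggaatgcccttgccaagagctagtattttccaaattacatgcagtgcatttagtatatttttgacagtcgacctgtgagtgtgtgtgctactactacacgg

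Stt3A, which codes for the catalytic subunit of the oligosaccharyltransferase that adds sugar chains to proteins, came next with a signal of 1105. Its summit, in the peak chrX:21054173-21054505, lay 391 bp upstream of the TSS and ranked 40 in replicate 1 and 64 in replicate 2. The TSS of another gene, bves, lay nearer, at 218 bp, so this summit cannot be assigned to Stt3A from position alone. Stt3A holds 3 snoRNAs.

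Among the ribosomal protein hosts the highest signals belonged to RpL30 (532, 9 bp upstream of the TSS), RpL14 (475, 15 bp upstream), RpS4 (456, 26 bp downstream), RpL23A (408, 55 bp upstream) and RpL13A (372, 49 bp upstream). All are structural proteins of the large or the small ribosomal subunit. In replicate 1 their ranks were 238, 389, 340, 438 and 487, and in replicate 2 they were 340, 370, 608, 613 and 748. Both replicates placed RpL30 first among the 5 and RpL13A last. RpL11 (353), RpS7 (311) and RpL4 (310) followed, with summits within 21 bp of their TSSs.

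The bases before the TSS of a few of these genes are shown for the positions of these summits, which lie inside the windows. They run up to the TSS at chr3L:8600880-8601005 (RpL14, plus strand; a shorter window because an exon of a neighbouring gene lies upstream), chr3L:1668655-1668854 (RpL23A, minus strand) and chr3R:5624274-5624473 (RpL13A, plus strand).
RpL14 promoter: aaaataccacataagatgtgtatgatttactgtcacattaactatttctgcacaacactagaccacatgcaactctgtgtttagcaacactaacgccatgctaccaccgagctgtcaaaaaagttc
RpL23A promoter: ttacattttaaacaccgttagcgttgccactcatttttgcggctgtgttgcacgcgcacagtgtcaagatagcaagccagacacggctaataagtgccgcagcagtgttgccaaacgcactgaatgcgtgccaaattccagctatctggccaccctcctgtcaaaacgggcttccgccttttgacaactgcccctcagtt
RpL13A promoter: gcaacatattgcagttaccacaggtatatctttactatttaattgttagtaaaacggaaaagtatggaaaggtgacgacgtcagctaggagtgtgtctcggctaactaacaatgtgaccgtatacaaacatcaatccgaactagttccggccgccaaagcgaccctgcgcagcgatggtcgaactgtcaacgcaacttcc
Their content of G and C was 38.9% for RpL14, 51.5% for RpL23A and 45.5% for RpL13A.

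**Figure D2:**
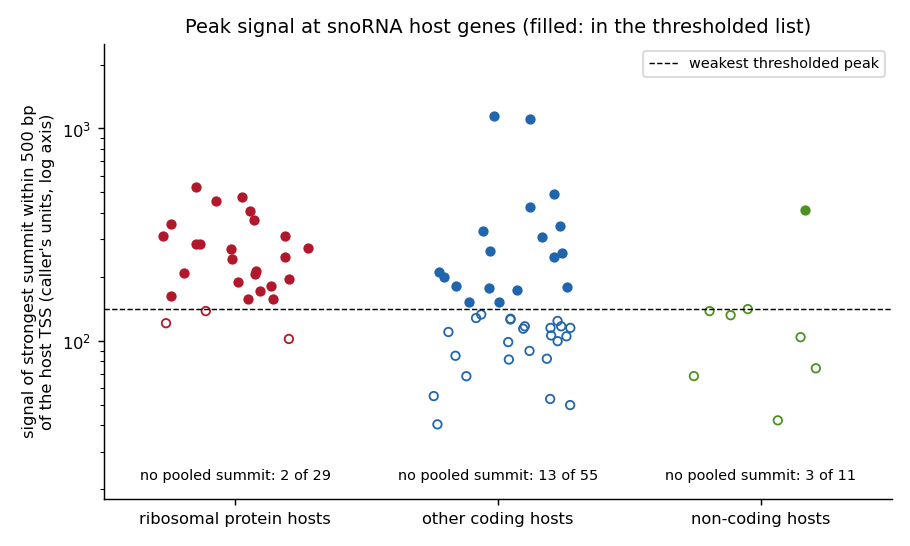
Signal of the strongest pooled summit within 500 bp of each host TSS on a log axis, by class of host; filled points are in the thresholded list, open points in the pooled list only, and the dashed line is the weakest thresholded peak. CG1142 (1151) and Stt3A (1105) lie above all ribosomal protein hosts, of which RpL30 (532) is the highest.

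Other coding hosts with strong summits had various roles. CG12316 (491), for which no role is given here, had its strongest summit 180 bp downstream of a TSS and a second one with a signal of 143 nearby. Msp300, a nesprin that links nuclei to the cytoskeleton in muscle, had a signal of 428 at 368 bp upstream. The summit of lola, a BTB transcription factor gene, had a signal of 346 at 342 bp upstream, and that of Irbp, the fly Ku70 protein of DNA repair, 328 at 61 bp upstream. The replicate 1 ranks of these 4 hosts ran from 312 to 928 and their replicate 2 ranks from 423 to 862.

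Of the 11 non-coding hosts 1 had a thresholded summit. It was Uhg4, which holds 7 snoRNAs (chr2R:9095273-9097312, plus strand) and had a signal of 412 at 36 bp upstream of its TSS, with ranks of 467 in replicate 1 and 656 in replicate 2. The other Uhg genes had weaker summits, in the pooled list: Uhg8 141, Uhg2 132, Uhg5 104, Uhg1 74.2 and Uhg3 68.2, and Uhg7 had none. Uhg7 lies inside the host RpL23A on the same strand. Its 4 snoRNAs are thus also in RpL23A, which had a thresholded summit (408). Uhg8 lay just outside the thresholded list, at rank 3428 of the pooled list, where that list ends at 3421. The weakest hosts inside it were nop5 and Rbfox1, both with a signal of 152, at ranks 2959 and 2984. In all, 8 of the 11 non-coding hosts (72.7%, 39 to 94%) had a pooled summit. Among them the pseudogene CR33222 has the same strongest summit (138) as the ribosomal protein host RpS6. Another, lncRNA:CR42491 (42.2), lies inside the host RpL22. Among 3251 non-coding RNA genes that are no host the shares were 4.92% in the thresholded and 28.2% in the pooled list.

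The hosts that hold most snoRNAs were mostly without a thresholded summit. They were Arpc2 (17), a subunit of the actin-branching Arp2/3 complex, Uhg1 (16), dom (15), a chromatin remodelling ATPase, RpS5a (14), Uhg5 (11) and Sf3b3 (9), a splicing factor subunit. Of these 6, RpS5a had a thresholded summit, with a signal of 190 at 30 bp upstream of its TSS. Arpc2 had a pooled signal of 106 and Sf3b3 of 82.3, and dom had no pooled summit. A thresholded summit was found at 23 of 56 hosts with 1 snoRNA (41.1%, 28.1 to 55%), at 15 of 24 with 2 to 4 (62.5%, 40.6 to 81.2%) and at 5 of 15 with 5 or more (33.3%, 11.8 to 61.6%). The 3 intervals overlap.

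Most summits of ribosomal protein hosts lay close to the TSS, and those of the other coding hosts were more spread. In 23 of the 24 bound ribosomal protein hosts the strongest summit lay within 100 bp of the TSS, with a median distance of 27.5 bp. In the 18 other coding hosts it lay within 100 bp in 6, with a median of 171 bp. For comparison, the 1602 thresholded summits within 500 bp of any TSS had a median distance of 134 bp. The signals of the ribosomal protein hosts ran from 157 to 532 with a median of 260, and those of the other coding hosts from 152 to 1151 with a median of 254. Of the 43 strongest summits, 29 lay upstream and 14 downstream of the TSS.

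**Figure D3:**
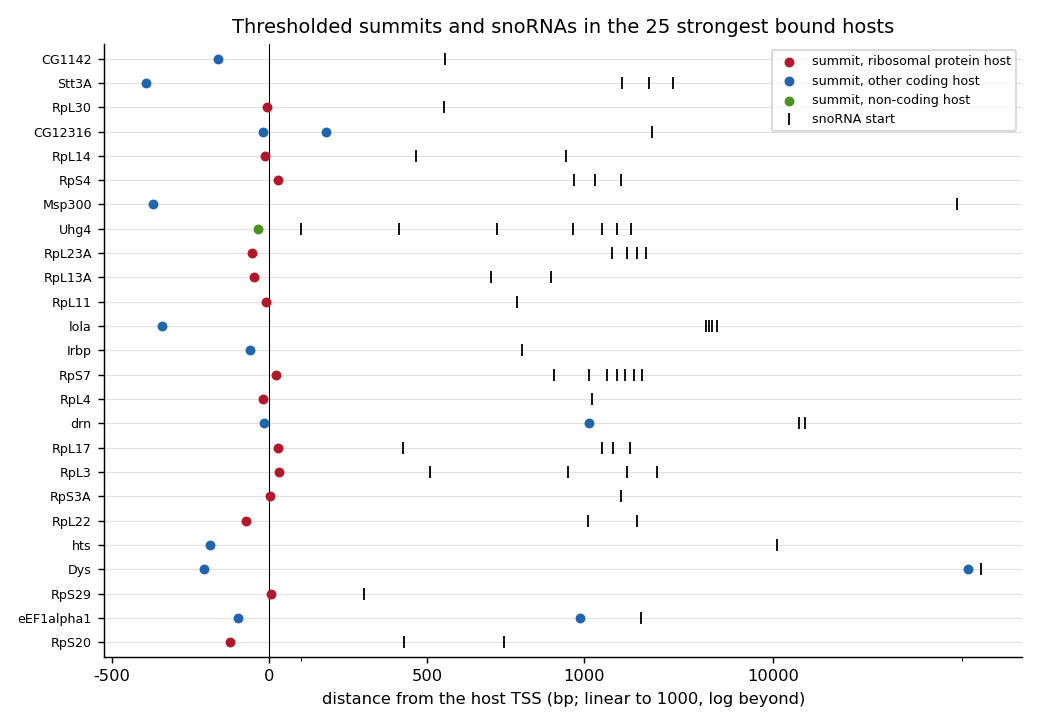
Thresholded summits (points) and snoRNA starts (ticks) of the 25 bound hosts with the strongest summits, drawn from the TSS nearest to the strongest summit, with distance in bp, linear to 1000 and on a log scale beyond. Points lie near 0 and ticks to their right; the second points of drn, Dys and eEF1alpha1 lie near another TSS of the same host.

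Some of these summits lay near the TSS of a neighbouring gene as well. For 17 of the 43 bound hosts another gene had a TSS within 500 bp of the summit, and for 5 that TSS was nearer than the host's own. Among them, named after their values were seen, were Stt3A, hts, eEF1alpha1 and Fib. The nearer genes were bves for Stt3A, CalpA for hts, ERp60 for eEF1alpha1 and CG3085 for Fib. None of the 5 is a ribosomal protein gene.

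All 43 host summits lay in a peak of both replicate lists. Their ranks ran from 40 to 4440 in replicate 1, with a median of 1086, and from 34 to 9265 in replicate 2, with a median of 1445. Each replicate rank in this report is that of the strongest replicate peak spanning the summit position. The summit of that replicate peak can lie elsewhere, also outside the window. As many of the strongest peaks as the thresholded list holds were also taken from 1 replicate in place of that list. This gave 45 bound hosts without replicate 1 and 42 without replicate 2, against 43. Some hosts were gained and others lost each time, and the lost ones are named here. Rbfox1, RpL10Ab, RpL36A and RpS9 had no summit without replicate 1, and nop5, pAbp and sta had none without replicate 2. These 7 hosts, of which RpL10Ab, RpL36A, RpS9 and sta are ribosomal protein genes, had signals of 152 to 173.

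**Figure D4:**
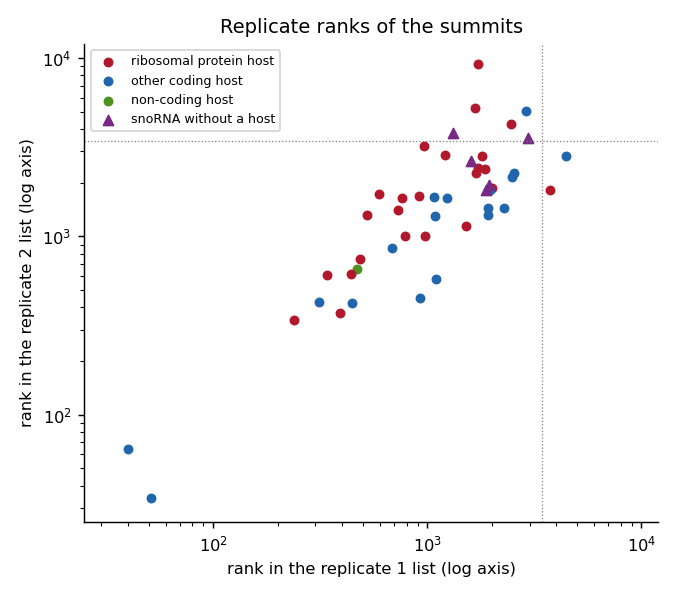
Rank of each of the 43 host summits (circles, by class) and of the 5 summits near snoRNAs without a host (triangles) in the replicate 1 list (x) and the replicate 2 list (y), both on log axes, with lines at the length of the thresholded list, 3421. In replicate 1, 41 of the 43 host summits are within that rank, and in replicate 2, 39 are.

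Of the hosts without a thresholded summit, 34 had a pooled one, with signals of 40.4 to 141 and a median of 106, and 18 had none. Of the 29 ribosomal protein hosts 27 (93.1%, 77.2 to 99.2%) had a pooled summit. Ribosomal protein genes that hold no snoRNA, counted at any TSS, had one in 55 of 64 cases (85.9%, 75 to 93.4%). These intervals overlap, and a difference between the ribosomal protein hosts and other ribosomal protein genes was not tested. The hosts RpL15 and RpL5, named after their values were seen, had no summit in either list.

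Most hosted snoRNAs started far downstream of the host TSS. A hosted snoRNA started a median of 1465 bp downstream of the nearest host TSS, and 163 of the 247 started more than 1000 bp from it. Of the 102 snoRNAs in bound hosts, 11 had a thresholded summit within 500 bp of their own start, which are all the hosted snoRNAs that had one (4.45%, 2.24 to 7.83%).

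The few summits near hosted snoRNAs were mostly the summits of the host TSS. The 11 snoRNAs shared 10 distinct summits, of which 9 lay within 500 bp of the host TSS and nearer to it than to the snoRNA. Psi18S-920, shown above, starts 117 bp downstream of the RpL10Ab summit, which is 16 bp from the TSS. Me28S-A774b starts 173 bp downstream of the summit of RpS12, and the Uhg4 summit was 135 bp upstream of Psi28S-2949. The second snoRNA near the Uhg4 summit was Or-aca5. Psi18S-1275 in RpS29 started 297 bp from its summit, Psi28S-1232 in RpL17 394 bp and Psi28S-2648 in RpL36A 464 bp. Farthest from their summits were Me18S-C1096 in RpL3 (481 bp), U49:66Da in RpL14 (482 bp) and Or-CD11a in RpL28 (484 bp), just inside the window of 500 bp. In each of these the summit lay upstream of the snoRNA, on the side of the host TSS. The exception was hts-a, whose summit (signal 282) lay 283 bp upstream of the snoRNA and 9341 bp from the nearest host TSS of hts, but 72 bp from the start of the transfer RNA gene tRNA:Val-AAC-2-1.

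Hosted snoRNAs far from any TSS had no thresholded summit. Distances here are to the nearest TSS of any gene that is not a snoRNA, the host included. Where the snoRNA started within 500 bp of such a TSS, 9 of 41 (22%, 10.6 to 37.6%) had a thresholded summit. From 501 to 1000 bp away 2 of 60 did (3.33%). Over 1000 bp away it was 0 of 146, which allows a share of up to 2.05%, and 11 of 146 (7.53%, 3.82 to 13.1%) had a pooled summit. Many of these snoRNAs share a host, so they are not independent, and the limit and the intervals do not cover this.

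**Figure D5:**
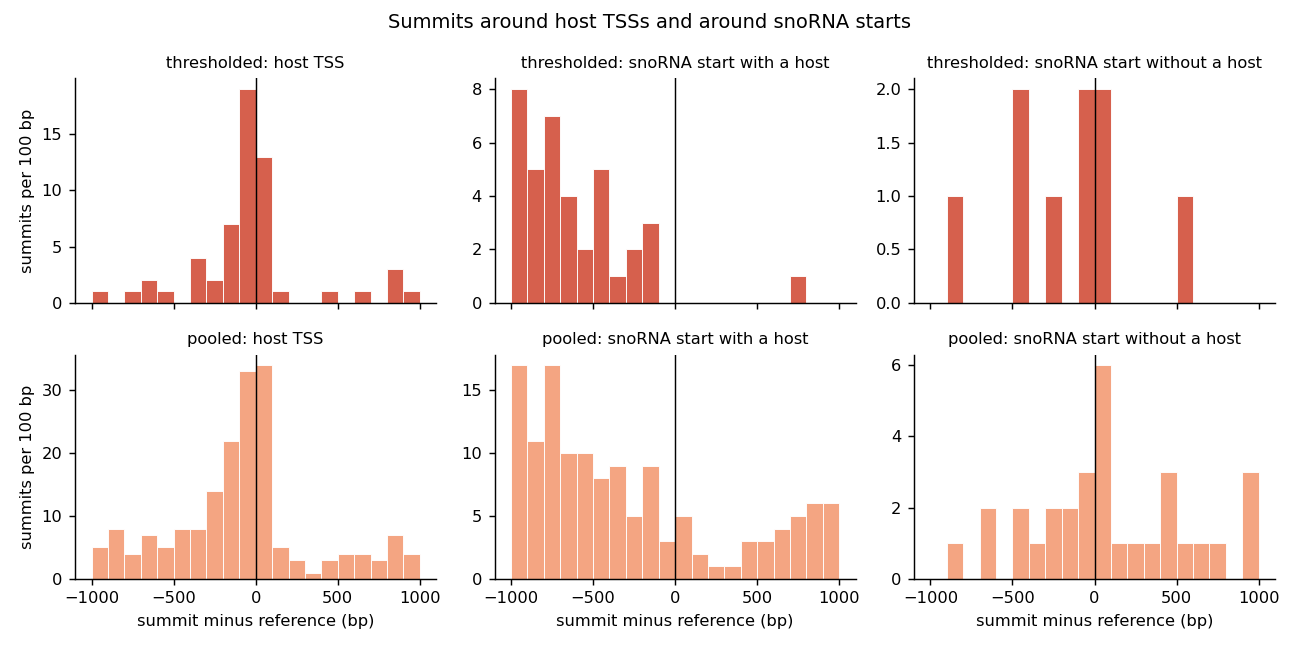
Number of thresholded (upper row) and pooled summits (lower row) per 100 bp by distance in bp from the host TSS, from the starts of snoRNAs with a host and from the starts of snoRNAs without one; a summit near several snoRNAs is counted for each. At the host TSS 32 thresholded summits lie within 100 bp, and at the starts of hosted snoRNAs 0 do.

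The snoRNAs without a host were few, and many of them lay near a summit. A thresholded summit lay within 500 bp of 7 of the 22 (31.8%, 13.9 to 54.9%) and a pooled one of 17 (77.3%, 54.6 to 92.2%), beside 10.1% and 43.7% of the starts of all other annotated genes. Transfer RNA genes, which are also short and non-coding, had a pooled summit at 184 of 290 starts (63.4%, 57.6 to 69%), and small nuclear RNA genes at 13 of 32 (40.6%, 23.7 to 59.4%). In the full lists of single replicates 16 of the 22 had a summit in replicate 1 and 14 in replicate 2, against 53 and 47 of the 247 hosted snoRNAs. Neighbours grouped, the 22 form 17 loci, and 3 of the 7 share 1 summit, so they are not independent. Of the 22, 10 lie inside a transcript of the other strand. With peaks of replicate 2 alone 4 of 22 had a summit, and only Psi28S-3342 and Psi18S-176 of the 7 were among them; with peaks of replicate 1 alone all 7 were.

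The 5 summits at these 7 snoRNAs had signals of 152 to 206, beside a median of 206 for the thresholded list. Psi28S-3342, whose name places its target in the large ribosomal RNA, held a summit of signal 202 inside the gene, 64 bp after its start, at rank 1943 in replicate 1 and 1946 in replicate 2. The nearest other annotated TSS lay 6901 bp from that summit. Psi18S-176, named for the small ribosomal RNA, also held its summit inside the gene, 42 bp after the start, with a signal of 192 and ranks of 1593 and 2659.

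The others lay before the gene. The orphan Or-ACA6 had a summit of signal 206 at 459 bp upstream, at rank 1886 in replicate 1 and 1829 in replicate 2. The replicate 2 rank is that of a peak that spans this position. No summit of the replicate 2 list lay within 500 bp of the Or-ACA6 start. A summit of signal 200 lay 60 bp upstream of the first of 3 neighbouring snoRNAs, the last of which is Psi28S-1153, at 429 bp, and it was 430 bp from the TSS of CG13334; its ranks were 1311 and 3800. The gene named snoRNA:185 had one of signal 152 at 14 bp upstream, 365 bp from the start of tRNA:Glu-TTC-1-5, with ranks of 2942 and 3560. The ranks in replicate 2 of these last 2 summits lie beyond 3421, the length of the thresholded list. Of the 5 summits, 3 lay more than 500 bp from any TSS other than a snoRNA's.

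In the pooled list several snoRNAs without a host had a summit close to the start. For 9 of the 22 it lay within 100 bp of the start, against 8 of the 247 with a host. Psi28S-2622 had a pooled summit at its first base (signal 137) and Me18S-A1806 1 bp before it (46), both named after their values were seen. Among those more than 1000 bp from any other TSS, 9 of 11 (81.8%, 48.2 to 97.7%) had a pooled summit, against 7.53% of the hosted snoRNAs at that distance. A thresholded summit lay at 2 of the 11 (18.2%, 2.28 to 51.8%). The 11 are not independent: Or-ACA7, scaRNA:MeU1b-A234, Or-ACA6 and Or-CD13 are neighbours on 2R. Of these, Or-ACA7, scaRNA:MeU1b-A234 and Or-ACA6 share a pooled summit of signal 38, where the lowest pooled signal is 31.3. Of the 3 U3 genes, whose RNA acts in the first cuts of the ribosomal RNA precursor, U3:9B had a pooled summit of 95.9 at 92 bp after its start, and U3:54Aa and U3:54Ab had none. The sequences of U3:54Aa and U3:54Ab differ at 0 of 210 bases, so reads from inside them cannot be told apart, and how such reads were treated is not stated.

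By arm, 96 of the 269 snoRNAs were on 2R, 52 on 3L, 48 on 3R, 41 on 2L, 31 on X and 1 on 4, with a thresholded summit at 9, 4, 2, 1, 2 and 0 of them. By name class, thresholded summits lay at 8 of 106 Psi snoRNAs (7.55%), 2 of 77 Me (2.6%), 3 of 21 orphans (14.3%) and 0 of 16 scaRNAs, which allows up to 18.8%. The intervals of these classes overlap. Of other short non-coding genes, transfer RNA gene starts had a thresholded summit at 39 of 290 (13.4%, 9.74 to 17.9%) and small nuclear RNA genes at 1 of 32.

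The proteins that build snoRNPs, the particles of snoRNA and protein, are coded by 13 listed genes. Of these 4 had a thresholded summit (30.8%, 9.09 to 61.4%) beside the 13.5% of all coding genes, and all 13 had a pooled one, beside 49.9%. Pontin (pont), an ATPase that helps to assemble box C/D particles, had the strongest, with a signal of 501 at 143 bp upstream and ranks of 402 and 255 in the replicates. NHP2, a core protein of box H/ACA particles, followed with 278 at 174 bp upstream. Fib, the fibrillarin methyltransferase, had 212 at 103 bp upstream, and nop5, a box C/D scaffold protein, 152 at 135 bp upstream. Fib and nop5 are themselves snoRNA hosts, as is Nop60B, the dyskerin-type pseudouridine synthase.

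The other snoRNP genes had pooled summits alone. For box C/D proteins these were 101 at Nop56 and 113 at hoip, and for box H/ACA proteins 68.1 at Nop60B, 79 at Gar1 and 57.3 at Nop10. Among assembly and transport factors they were 130 at Nopp140, 99.8 at rept, 72 at CG10055 and 61.6 at CG10341. All are below the weakest thresholded signal of 141.

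Promoter motifs were counted from 250 bases before to 50 after the canonical TSS. A host counts as bound by a summit at any TSS of a transcript that contains a snoRNA, so its motif window can lie elsewhere. Of the 55 other coding hosts, 18 were bound by that rule and 11 when the canonical TSS alone was counted. The motif shares of the other bound hosts therefore do not always describe the bound TSS. CTTT on the gene's strand with its first base within 10 bases of the TSS was present in 19 of 29 ribosomal protein hosts (65.5%), in 41 of 64 ribosomal protein genes that hold no snoRNA (64.1%), in 13 of 66 other hosts (19.7%) and in 11% of all coding genes. Bound ribosomal protein hosts had it in 16 of 24. The DNA replication-related element TATCGATA was found, on either strand, in 9 of 43 bound hosts (20.9%), 11 of 52 hosts without a thresholded summit (21.2%) and 8.94% of all coding genes. By class it was in 7 of 24 bound ribosomal protein hosts (29.2%), 2 of 19 other bound hosts (10.5%) and 10 of 47 other hosts without a thresholded summit (21.3%). The core promoter motif GGTCACAC was in 6 of 43 bound hosts (14%), 11.5% of the others and 7.54% of all. GAGAG, the letters bound by GAGA factor, was in 14 of 43 bound hosts (32.6%), 26.9% of the others and 30.2% of all. Split by class it was in 5 of 24 bound ribosomal protein hosts (20.8%), 9 of 19 other bound hosts (47.4%) and 14 of 47 other hosts without a thresholded summit (29.8%). Counted on both strands, neighbouring GAGAG matches can overlap, and a match is a description of letters, not a bound site.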

How the data were processed

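ChIP-seq peak lists of Salm-GFP in whole embryos (2 biological replicates, 1 group) were used. Per the labels, chromatin was sonicated to 200 to 800 bp and coordinates are dm6. The authors called peaks on each replicate and on both pooled, and thresholded the pooled peaks by consistency between replicates, per the deposited descriptions. Aligner, peak caller and threshold: not given in the sources used here. Signal in the deposited lists is the strength the caller assigned to a peak. The thresholded and the pooled list gave the host summits the same signals, and the replicate lists gave other ones. The deposited −log10 p- and q-values were not used. Read totals were not given, so depth is unknown. From the lists, summits were placed against gene starts and TSSs of Ensembl release 115 (FlyBase 6.54), with a window of 500 bp. Shares have exact (Clopper-Pearson) 95% binomial intervals that cover counting error only, and a count of 0 allows 3 counts. No test was made. The members, lists and motifs were chosen with earlier results of these data known. The named genes are the 15 bound hosts with the strongest summits, the 6 hosts with most snoRNAs, the Uhg genes, the snoRNAs nearest to summits, all hostless snoRNAs with a summit and all listed snoRNP genes; other names were chosen after their values were seen, and a few genes are not reported here. Promoters were printed for hosts with at least 100 bases free of exons before the TSS, up to 200. Sequence was read from genome Release 6. Alternatives changed the window, the peaks, the replicates or the definition of a host. Scripts were tested on simulated data and used Python 3.11.15, numpy 2.4.6, scipy 1.17.1 and matplotlib 3.10.9.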

Additional observations from a re-analysis of the deposited data

How the results depend on the processing

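The counts depend on the window. With 250 bp in place of 500 bp the snoRNA starts with a thresholded summit were 7, and with 1000 bp 47, against 18; with the upper 50% of the peaks by signal they were 9, and without each replicate in turn 13 to 18. Pooled summits were at 30 and 114 starts with these windows, against 57. Of the summits near snoRNAs, 3 and 25 lay at the host TSS, against 9, and 7 to 9 without each replicate. Bound hosts were 19 without ribosomal protein genes and 42 to 45 without each replicate, against 43. The upper 50% of the peaks removed 14 of the 43 hosts and 6 of the 7 hostless snoRNAs, and the 250 bp window 5 hosts (Msp300, Stt3A, Usp10, lola and pAbp). The number of bound snoRNP genes was 4 with each replicate left out in turn. They need not be the same genes, since nop5, counted as a host, had no summit without replicate 2. A host on either strand gave 109 hosts, of which 43 were bound, and the canonical TSS alone 36 of 95. The other alternatives moved no count by over 1.5 times, except that hostless snoRNAs with a thresholded summit were 4 of 22 with 250 bp and without replicate 1, and 1 of 22 with the upper 50% of peaks, against 7. No paired analysis was possible because there is 1 group and no comparison between groups.

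A summit places binding no more finely than its peak allows. There are 2 replicates, read depth is unknown and the control was not analysed here.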
